A study of Mus musculus with 4 samples.

Results

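L2/3 IT nuclei come from the intratelencephalic (IT) excitatory neurons of cortical layers 2 and 3. They were selected by how many molecules of 8 genes were captured in each nucleus, counted as unique molecular identifiers (UMIs). A member held at least 3 UMIs of Slc17a7, at least 1 of Otof and at least 3 of Cux2. It held at most 1 UMI of Gad1 and Gad2 together, 5 of Rorb, 4 of Tshz2 and 2 of Slc17a6. Of 26350 nuclei with at least 500 detected genes and at most 5% mitochondrial UMIs, 1244 were members. Pregnant mice gave 163 and 250 members, and non-pregnant mice gave 335 and 496. The levels of these 8 genes in the members were fixed by the selection and are given only as a description.

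Single-nucleus RNA sequencing (10x 3' chemistry) was done on microdissected cortex of wildtype C57BL/6JRj females aged about 12 weeks. The pregnant group was 2 libraries from mice killed at E13.5, in mid-gestation, and the non-pregnant control group was 2 libraries. Each library carries its own replicate number, but the labels do not state whether tissue of several mice was pooled. If libraries share an animal or preparation, p-values measure only technical spread. The stage of the oestrous cycle of the controls, the time of day and the cortical area taken are not given in the sources used here.

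IT neurons use glutamate and send axons within the cortex and to the striatum, on both sides of the brain, but not to the thalamus or spinal cord. Those of layers 2 and 3 receive input from layer 4 and link cortical areas with each other and across the corpus callosum. Slc17a7 encodes the vesicular glutamate transporter of cortical excitatory neurons, Cux2 an upper-layer transcription factor, and Otof the calcium sensor otoferlin, whose transcript marks L2/3 IT neurons in mouse cortex. The excluding genes mark inhibitory neurons (Gad1, Gad2), layer 4 and 5 IT neurons (Rorb), near-projecting neurons (Tshz2) and thalamic or other glutamatergic neurons (Slc17a6).

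The members carried further upper-layer genes that the selection did not use. Of 14 such markers, 12 were higher in the members than in the remaining excitatory nuclei in each of the 4 libraries, 10 were higher than in L4/5 IT nuclei (taken by at least 6 UMIs of Rorb) and 14 were higher than in inhibitory nuclei. Levels are given in CPM, the UMIs of a gene scaled to a common total for all UMIs of the class in a library, and are averaged here over the 4 libraries. Ccbe1, a secreted matrix protein, stood at 97.1 in members and 18.8 in L4/5 IT nuclei. Nectin3, an adhesion molecule, stood at 314 in members and 135 in L4/5 IT nuclei. Calb1, the calcium buffer calbindin, stood at 119 in members and 47.1 in L4/5 IT nuclei. For each of these 3 genes the lowest member library lay above the highest L4/5 IT library. Pou3f3, a POU-domain factor, stood at 29.4 in members and 28.9 in the remaining excitatory nuclei. The remaining excitatory nuclei, 12787 in number, are all excitatory nuclei outside the members. They therefore overlap with the L4/5 IT class and also hold upper-layer nuclei that the rule left out.

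**Figure D1:**
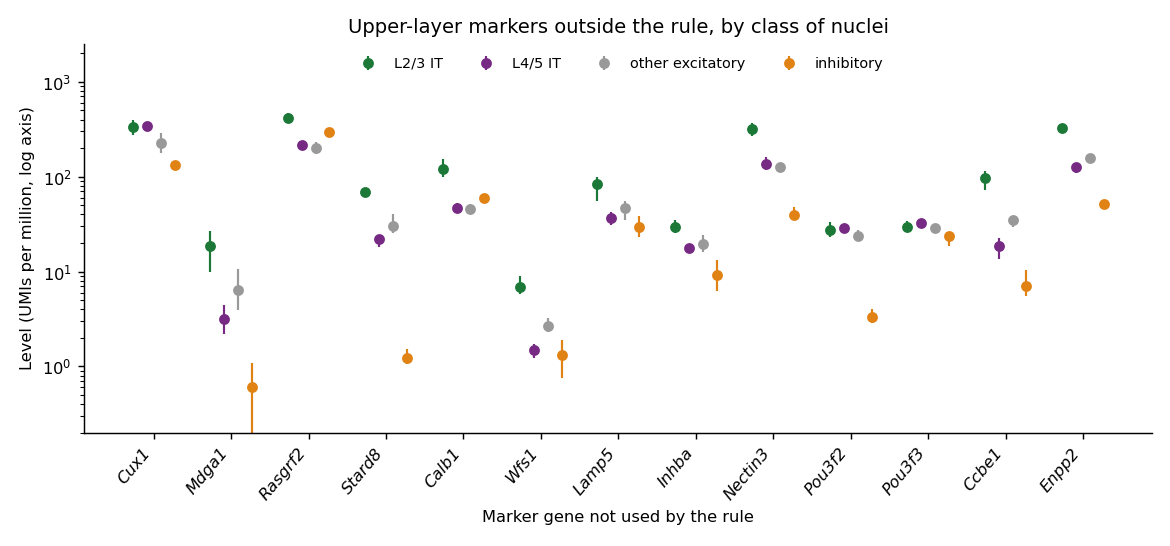
Levels of 13 upper-layer marker genes outside the selection rule, in CPM on a log axis. Points are means over the 4 libraries and lines run from the lowest to the highest library; Mdga1, Ccbe1, Stard8 and Wfs1 separate members from L4/5 IT nuclei, and Pou3f3 does not.

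Other genes also described the members. By mean log2 ratio with 5 CPM added, Igsf11, a synaptic adhesion protein, led over the remaining excitatory nuclei (114 in members, 26.7 in the others, in CPM). Glis3, a zinc-finger transcription factor, followed with 40.2 in members and 8.01 in the others. Epha3, a receptor of ephrins in axon guidance, stood at 214 in members and 85.9 in the others. Among the lowest were genes of other layers, such as Il1rapl2, at 31.6 in members and 539 in the others. Hs3st4, used as a layer 6 marker, stood at 44.4 in members and 463 in the others. It was about as high in L4/5 IT nuclei, at 429, so its low level in members is not a contrast with layer 6 alone. Foxp2, a layer 6 corticothalamic transcription factor, stood at 12.1 in members and 96.2 in the others. Since every class here was drawn with genes that differ between layers, these ratios have no test.

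The rule keeps a subset of upper-layer nuclei rather than all of them. Members with the single Otof UMI that the rule asks for numbered 716, or 57.6% of members, and 2723 nuclei met every other criterion with 0 Otof UMIs. The 14 upper-layer markers summed to 2162 CPM in the members with 1 Otof UMI, 1928 in the nuclei with none, and 1404 in L4/5 IT nuclei. At the Cux2 edge, the 207 members with 3 UMIs and the 178 excluded nuclei with 2 summed to 2203 and 2213 CPM. At the Rorb edge, 24 members had 5 UMIs and 16 excluded nuclei had 6.

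The libraries held 6262 to 6845 kept nuclei, and the members had medians of 17569 to 22743 UMIs and 4506 to 5102 genes. Summed over members, UMIs numbered 3441980 and 5234806 in pregnant libraries and 6445210 and 12043613 in non-pregnant libraries. Across 5984 genes, non-pregnant replicate 2 was the library least like the others: its log2 levels correlated at 0.973 and 0.981 with the pregnant libraries and 0.978 with non-pregnant replicate 1, and the other 3 pairs at 0.987 to 0.988. No member shared its barcode with a member of another library, and 9 members had a barcode found in another library.

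Members made up a smaller share of the nuclei in both pregnant libraries. They were 2.49% (95% Wilson interval 2.14 to 2.89) and 3.74% (3.31 to 4.22) of kept nuclei in pregnant mice, against 4.89% (4.41 to 5.43) and 7.92% (7.28 to 8.62) in non-pregnant mice. These intervals cover counting error only. The difference was -3.30 percentage points, and -1.78 without non-pregnant replicate 2. The groups did not overlap, but the libraries within a group differed as well: the mean was 3.11% ± 0.886 in pregnant and 6.41% ± 2.14 in non-pregnant mice (SD, n = 2 each). An exact two-sided permutation test gave p = 0.333, the smallest p that 2 against 2 libraries can give.

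The order of the groups held with other denominators. Of excitatory nuclei, members were 5.11% and 7.90% in pregnant mice and 8.77% and 12.9% in non-pregnant mice. Without the Otof criterion, the shares of kept nuclei were 8.95% and 11.5% in pregnant mice and 18.9% and 21.0% in non-pregnant mice. With every nucleus thinned to 15000 UMIs and shallower ones left out, an alternative chosen after seeing the data, they were 2.71% and 4.29% in pregnant mice and 6.44% and 6.46% in non-pregnant mice. With at least 2 Otof and 5 Cux2 UMIs the groups overlapped: 0.702% and 1.12% in pregnant mice, 1.05% and 2.79% in non-pregnant mice. Because membership depends on raw UMIs of the rule genes, fewer L2/3 IT nuclei and lower levels of those genes cannot be told apart, nor can a different piece of cortex.

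**Figure D2:**
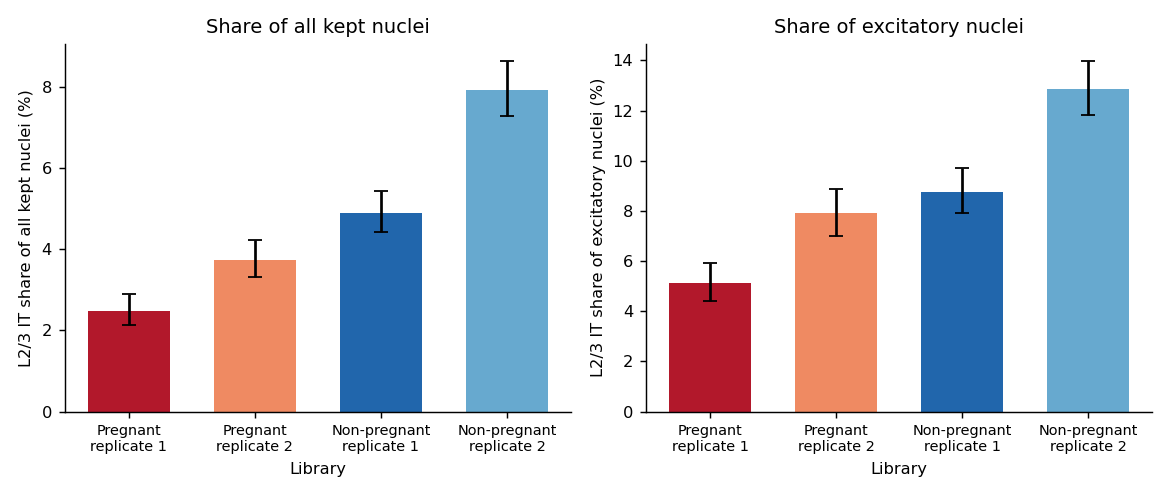
L2/3 IT nuclei as a share of all kept nuclei (left panel) and of excitatory nuclei (right panel) in each library, in percent, with bars for the measured share and lines for 95% Wilson intervals. Shares of kept nuclei are 2.49% and 3.74% in pregnant mice and 4.89% and 7.92% in non-pregnant mice.

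The members were not uniform. Clustering them on all but the 8 rule genes gave 10 sub-clusters, described here by number and leading genes. Sub-cluster 1 (186 nuclei) was led by Zfpm2, a cofactor of GATA factors (352 CPM in it, 68.7 in the other members), and Cdh13, the membrane-anchored T-cadherin (319 and 66.2). Sub-cluster 7 (134 nuclei) was led by Ndst4 and Adamts2, a procollagen protease whose transcript names an L2/3 type of mouse visual cortex (82.7 and 13.7), with the receptor tyrosine kinase Met (67.1 and 12.2). Sub-cluster 3 (189 nuclei) was led by Nell1 (338 and 115) and Qrfpr, a peptide receptor (137 and 45.4), and sub-cluster 0 (214 nuclei) held Pld5, Rmst and Mgll, the monoacylglycerol lipase that degrades an endocannabinoid (141 and 42.0). Adamts2 and Agmat, another gene used to name L2/3 types, ran opposite ways: Agmat was at 11.3 in sub-cluster 3 and 2.27 in sub-cluster 7.

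The libraries drew unevenly on these sub-clusters. Sub-cluster 1 gave 39.9% and 20.4% of members in pregnant replicates 1 and 2 and 20.9% in non-pregnant replicate 1. It gave 0 of 496 members in non-pregnant replicate 2, which allows a share of up to 0.605%. Sub-cluster 3 gave 3.07% and 10.8% in pregnant mice and 13.7% and 22.4% in non-pregnant mice. No test was made of these shares, since the clustering used the same genes that differ between libraries.

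A minority of members also carried genes of other cells. In sub-clusters 4, 8 and 9 (87 nuclei, 6.99% of members), over 50% of nuclei were marked by a doublet score. Sub-cluster 8 was led by oligodendrocyte genes, with Mog at 238 CPM and 0.854 in the other members. Sub-cluster 9 was led by layer 6 corticothalamic genes, with Foxp2 at 409 and 2.71 in the other members. Sub-cluster 4 was led by Il1rapl2 and held genes of several cell types, with marker sums of 538 CPM for L5 IT and L6 IT neurons, 408 for inhibitory neurons and 217 for microglia, the highest of the 10 sub-clusters for each. Its leading genes included Erbb4 and Adarb2, which are high in interneurons, and Mertk and Tgfbr1, which are high in microglia. These 3 sub-clusters gave 11.0% and 8.40% of members in pregnant mice and 9.85% and 3.02% in non-pregnant mice, and values without them are given below where they differ. Over all members, inhibitory markers summed to 121 and 48.5 CPM in pregnant mice and 91.4 and 29.4 in non-pregnant mice, against a mean of 16496 in inhibitory nuclei. Oligodendrocyte markers summed to 186 and 108 CPM in pregnant mice and 173 and 78.0 in non-pregnant mice, and vessel markers stayed below 6 CPM, with Cldn5 and Dcn at 0. Non-pregnant replicate 2 was the lowest library for the inhibitory and oligodendrocyte sums.

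Sub-clusters 5 and 6 (213 and 135 nuclei) were led by genes that neuronal activity induces. Early genes of this kind encode transcription factors such as Fos, Egr1 and Npas4, and later ones encode effectors such as Bdnf, a growth factor, and Nptx2, an organiser of excitatory synapses. A list of 18 early genes summed to 569 and 684 CPM in sub-clusters 5 and 6, and to 107 in sub-cluster 7 and 108 in sub-cluster 3. Npas4 was at 44.0 and 67.8 in sub-clusters 5 and 6, and at 4.22 in sub-cluster 7. Since these genes also drew the sub-clusters, their spread is a description only.

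These early genes set 1 control library apart rather than the groups. Npas4 stood at 43.5 and 30.5 normalised CPM (scaled by the trimmed mean of M-values, TMM) in pregnant mice and at 39.3 and 3.47 in non-pregnant mice. Fos stood at 23.2 and 18.5 in pregnant mice and at 23.4 and 0.423 in non-pregnant mice. Egr2 had 21 and 23 UMIs in pregnant mice, and 30 and 0 in non-pregnant mice, where 0 allows up to 0.249 CPM. In each of these, non-pregnant replicate 2 was the low library and the other 3 lay close together. Over the list, raw levels summed to 481 and 460 CPM in pregnant mice and 523 and 76.8 in non-pregnant mice. Of 17 early genes tested, 0 passed between groups, and their median log2 fold change (pregnant over control) was 0.79, against 0.01 over all genes. Without non-pregnant replicate 2 that median was -0.19, and without non-pregnant replicate 1 it was 3.46. Nuclei were isolated on ice in buffers that held actinomycin D, which blocks transcription. A list of 17 later genes summed to 2228 and 2054 raw CPM in pregnant mice and 2425 and 1539 in non-pregnant mice. Bdnf, for example, stood at 87.2 and 86.8 in pregnant mice and 95.2 and 21.5 in non-pregnant mice. Pcsk1, a prohormone convertase, stood at 197 and 140 in pregnant mice and 167 and 36.7 in non-pregnant mice. Inhba was not lowest in non-pregnant replicate 2, and Sorcs3 was highest there, at 359. Sorcs3 stood at 283 and 256 in pregnant mice and 307 in non-pregnant replicate 1.

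**Figure D3:**
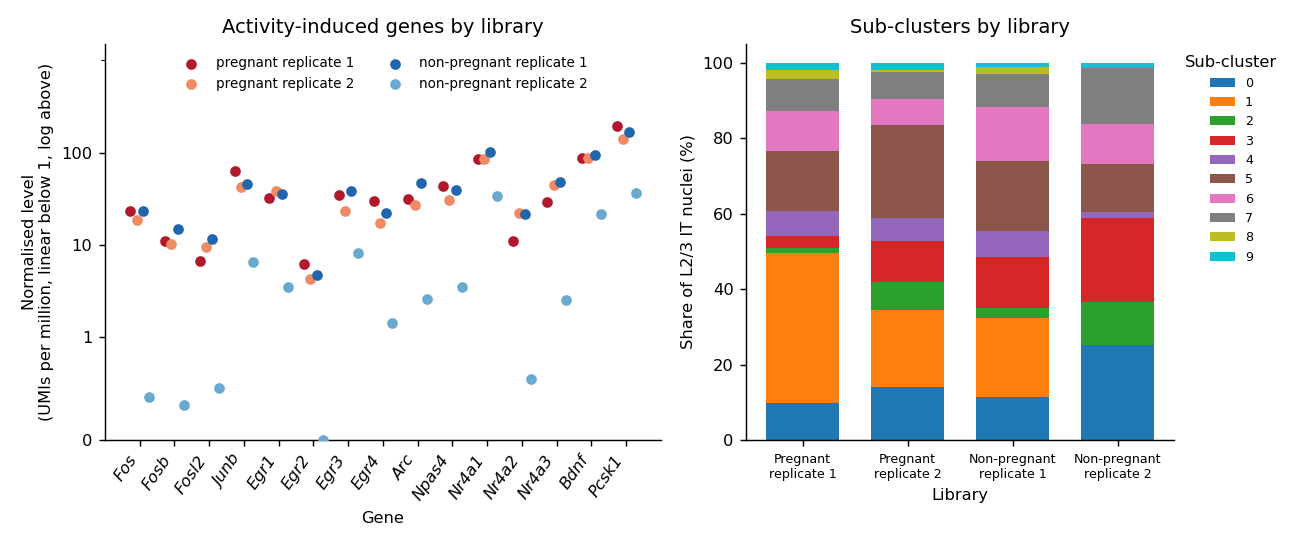
Normalised levels of 15 activity-induced genes in each library (left panel, CPM, linear below 1 and log above) and the share of members in each of 10 sub-clusters (right panel, percent). Non-pregnant replicate 2 lies below the other 3 libraries for each gene plotted and has no nuclei of sub-cluster 1.

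The sums per library were tested gene by gene for a difference between pregnant and non-pregnant mice. Of 13519 genes tested with edgeR's quasi-likelihood test, 0 (0%) had a Benjamini-Hochberg adjusted p below 0.05, and 748 had an unadjusted p below 0.05 (2.91% of all genes higher and 2.62% lower in pregnant mice). DESeq2, run as an alternative, called 10 (0.074%): Norad, Flrt2, Hbb-bs, Etv1, Mkx and Htr1f higher in pregnant mice, and Sdk1, Nell1, Abi3bp and Arhgap15 lower. The libraries of the groups did not overlap for 17.6% of all genes in the higher and 17.1% in the lower direction. The genes below are therefore described with their values in each library, and none of them passed the edgeR test in these nuclei. Abi3bp and Arhgap15 are named because DESeq2 called them, after their values had been seen.

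Norad, a long noncoding RNA that binds Pumilio proteins and guards chromosome stability, had the smallest p. It stood at 32.0 and 29.6 normalised CPM in pregnant mice and at 12.5 and 11.0 in non-pregnant mice. Both pregnant libraries lay above both controls, with a log2 ratio of pregnant over control of 1.40 (SE 0.169, edgeR adjusted p = 0.0655). Norad was called in 11 of the 18 alternatives that tested it, with adjusted p between 2.8e-10 and 0.985. In each of the 4 sub-clusters with at least 10 nuclei per library the groups did not overlap, with log2 ratios of 1.24 to 1.80. These sub-clusters hold nuclei of the same libraries, so they are not a further test. Pum2, a Pumilio protein, stood at 88.4 and 77.4 in pregnant mice and 76.1 and 79.3 in non-pregnant mice.

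The 10 higher and 10 lower genes of smallest p whose groups do not overlap are given here by what each is known to do. Flrt2, a membrane ligand of Unc5 receptors and latrophilins in migration and synapse formation, stood at 397 and 384 in pregnant mice and 243 and 235 in non-pregnant mice. Within each group the libraries were close, and the log2 fold change was 0.71 (SE 0.0931, adjusted p = 0.0696). In the same 4 sub-clusters its groups did not overlap either, with log2 ratios of 0.73 to 0.96. The genes were picked for no overlap in these same libraries, so counts of sub-clusters describe them and do not test them. The share of all genes apart within sub-clusters is not given. Some values rest on few UMIs: Hbb-bs in sub-cluster 0 stood at 3.47 CPM in the 16 nuclei of pregnant replicate 1. Hbb-bs, Itgav, Rspo3, Sdk1, Cacng2 and Rnf150 were likewise apart in 4 of 4, and Mkx, Inf2, Nell1 and Rnf165 in 3. Etv1, Esrrg and Adcy9 were apart in 2, Crispld1 in 1 and Arhgef26 in 0. Olfm3 and Cbfa2t3 were apart in 3 in the direction of all members and in 1 in the opposite direction. In sub-cluster 6, Olfm3 stood at 5.46 and 7.98 CPM in pregnant mice and 12.8 and 10.4 in non-pregnant mice. In sub-cluster 5, Cbfa2t3 stood at 20.2 and 19.2 in pregnant mice and 18.6 and 16.7 in non-pregnant mice. The log2 ratio changed sign between these sub-clusters for Olfm3 (-0.71 to 1.51), Arhgef26 (-0.55 to 2.21), Cbfa2t3 (-1.98 to 0.15), Crispld1 and Rnf165 (-0.75 to 0.10). Sdk1, a homophilic adhesion molecule that directs synaptic partner choice in the retina of mouse and chick, was lower, at 70.5 and 71.1 in pregnant mice and 129 and 115 in non-pregnant mice. Its log2 fold change was -0.78 (SE 0.110, adjusted p = 0.0928). Itgav, the integrin alpha V chain, stood at 111 and 115 in pregnant mice and 81.4 and 69.3 in non-pregnant mice (log2 fold change 0.59, SE 0.115).

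Etv1, an ETS factor typical of layer 5 neurons, stood at 74.0 and 61.0 in pregnant mice and 38.5 and 34.9 in non-pregnant mice (log2 fold change 0.88, SE 0.139, adjusted p = 0.158). Mkx, the homeobox factor mohawk, stood at 251 and 215 in pregnant mice and 156 and 138 in non-pregnant mice. Esrrg, an orphan nuclear receptor related to the oestrogen receptors, stood at 96.1 and 101 in pregnant mice and 60.8 and 64.9 in non-pregnant mice. For all 3 the pregnant libraries were the higher, with adjusted p of 0.158 to 0.164. Cbfa2t3, a transcriptional corepressor, was lower, at 12.3 and 13.1 in pregnant mice and 27.1 and 24.6 in non-pregnant mice (log2 fold change -1.01, SE 0.173, adjusted p = 0.164).

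Rspo3, an activator of Wnt signalling, stood at 98.7 and 99.6 in pregnant mice and 66.9 and 69.3 in non-pregnant mice. Olfm3, a secreted olfactomedin, stood at 42.9 and 33.8 in pregnant mice and 21.8 and 15.6 in non-pregnant mice; without the Otof criterion its log2 fold change was 0.18, against 1.05 with it. Nell1, a secreted protein of sub-cluster 3, stood at 81.7 and 94.2 in pregnant mice and 143 and 195 in non-pregnant mice (log2 fold change -0.94, SE 0.154, adjusted p = 0.215). Crispld1, which also led sub-cluster 3, stood at 38.2 and 44.1 in pregnant mice and 67.2 and 66.9 in non-pregnant mice. The share of members in sub-cluster 3 was also lower in pregnant mice. Within the 4 sub-clusters compared, Nell1 was lower in pregnant mice in 4 (log2 ratio -1.23 to -0.28, 3 without overlap). Crispld1 was lower in 3 (-1.84 to 0.15, 1 without overlap). Sub-cluster 3 was not among those compared, because pregnant replicate 1 had only 5 nuclei there. Whether the 2 genes differ inside sub-cluster 3 was therefore not tested. With equal numbers of nuclei per sub-cluster, the log2 fold change was -0.49 for Nell1 and -0.52 for Crispld1. Cacng2, the AMPA receptor auxiliary subunit stargazin, stood at 81.7 and 82.8 in pregnant mice and 119 and 113 in non-pregnant mice (log2 fold change -0.50, SE 0.103). Adcy9, an adenylyl cyclase, stood at 161 and 173 in pregnant mice and 225 and 231 in non-pregnant mice. The actin regulator Inf2 (log2 fold change -0.92) and the ring-finger genes Rnf150 (-0.44) and Rnf165 (-0.48) were lower in the same way, and the exchange factor Arhgef26 was higher (1.43, or 0.60 without sub-clusters 1, 4, 8 and 9).

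**Figure D4:**
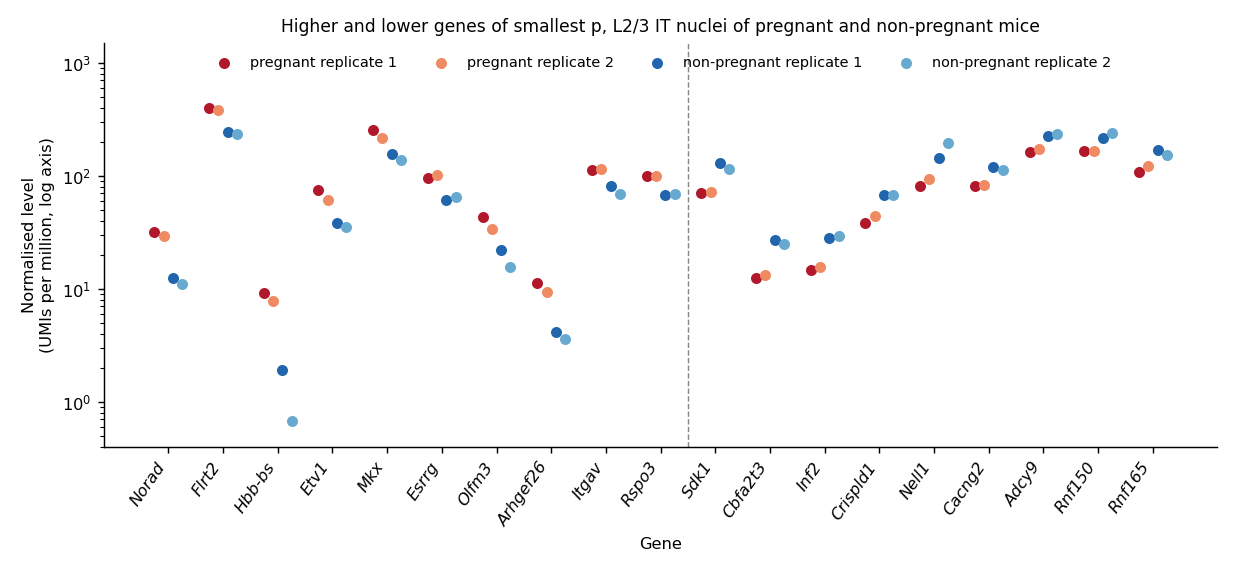
Normalised levels in each library (CPM, log axis) of 10 higher and 9 lower genes among those of smallest p whose groups do not overlap, with pregnant libraries left of non-pregnant ones for each gene. None passed the edgeR test; Norad, at 32.0 and 29.6 in pregnant mice and 12.5 and 11.0 in non-pregnant mice, has the smallest p.

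Haemoglobin and mitochondrial transcripts separated the groups without overlap in members, L4/5 IT and inhibitory nuclei, although in members Hbb-bs did not pass the test. Hbb-bs, a beta-globin of red blood cells, had 31 and 42 UMIs in members of pregnant mice and 12 and 8 in members of non-pregnant mice, or 9.11 and 7.76 against 1.89 and 0.677 normalised CPM. Its log2 fold change was 2.84 (SE 0.446, adjusted p = 0.158), and the log2 fold change was 3.17 in L4/5 IT nuclei (adjusted p = 0.0014) and 3.88 in inhibitory nuclei (adjusted p = 0.0498). The 5 red-cell genes summed to 22.4 and 17.6 CPM in members of pregnant mice and 10.7 and 7.72 in members of non-pregnant mice, and none was at 0 in all libraries. Mitochondrial genes summed to 49.4 and 58.5 CPM in members of pregnant mice and 23.6 and 24.5 in members of non-pregnant mice. In L4/5 IT nuclei they summed to 47.3 and 74.4 in pregnant mice and 20.8 and 29.1 in non-pregnant mice, and in inhibitory nuclei to 119 and 169 in pregnant mice and 40.6 and 61.6 in non-pregnant mice. RNA outside nuclei was not subtracted from the counts, and its part in the other differences was not tested.

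The log2 fold change of some genes that lead the mixed sub-clusters depended on which nuclei were kept. Htr1f, a serotonin receptor of deep layers, stood at 28.2 and 47.5 in pregnant mice and 19.1 and 12.6 in non-pregnant mice (log2 fold change 1.31). Its log2 fold change was 0.64 without sub-clusters 4, 8 and 9, but 2.80 without the marked doublets and 2.61 with stricter thresholds (at least 2 Otof and 5 Cux2 UMIs). Tox, a deep-layer factor that DESeq2 did not call, had a log2 fold change of 1.61, which was 0.97 without those sub-clusters and 2.47 with stricter thresholds (edgeR adjusted p = 0.00349). The guidance ligand Sema3e, also not called, had 1.29, which was 0.52 without those sub-clusters, 2.09 without the marked doublets and 2.54 with stricter thresholds. Abi3bp stood at 33.2 and 53.2 in pregnant mice and 90.8 and 113 in non-pregnant mice (log2 fold change -1.22, and -1.10 without those sub-clusters). Arhgap15 stood at 44.1 and 54.5 in pregnant mice and 79.1 and 126 in non-pregnant mice. In members, sums of deep-layer markers differed between libraries. The 8 L5 IT and L6 IT markers summed to 192 and 207 CPM in pregnant mice and 119 and 87.0 in non-pregnant mice. Etv1 and Tox made up most of this sum, and Osr1 was at 0 throughout. Tox stood at 77.6 and 105 normalised CPM in pregnant mice and 40.9 and 20.7 in non-pregnant mice. Markers of L6 CT and L6b neurons summed to 303 and 299 CPM in pregnant mice and 247 and 121 in non-pregnant mice. Among these, Zfpm2, which led sub-cluster 1, stood at 187 and 158 normalised CPM in pregnant mice and 140 and 38.2 in non-pregnant mice. Averaged over libraries, L5/6 NP markers summed to 74.1 CPM in members and 64.5 in L4/5 IT nuclei, and L5 ET markers to 57.8 and 58.1.

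Steroid and peptide hormone receptors carry the signals of pregnancy to cells. Of 18 hormone and growth receptor genes tested, 0 passed, and 4 (22.2%) were higher and 3 (16.7%) lower without overlap. Over all genes these shares were 17.6% and 17.1%, so the receptors lay near the background. The median log2 fold change of the 18 was -0.03, and -0.099 to 0.084 leaving out 1 library. The highest value was without non-pregnant replicate 2. Prlr, the receptor of prolactin and placental lactogens, was near the detection limit, with 8 and 3 UMIs in pregnant mice and 15 and 14 in non-pregnant mice. Pgr, the progesterone receptor, stood at 47.9 and 51.7 in pregnant mice and 45.3 and 55.4 in non-pregnant mice, and Nr3c1, the glucocorticoid receptor, at 191 and 163 in pregnant mice and 176 and 181 in non-pregnant mice. Esr1, the oestrogen receptor alpha, had 46 and 22 UMIs in pregnant mice and 25 and 41 in non-pregnant mice, whose libraries were the deeper, and 1 pregnant library set its log2 fold change of 1.17 (0.14 without pregnant replicate 1). Oxtr, the oxytocin receptor, had 2 and 2 UMIs in pregnant mice and 3 and 4 in non-pregnant mice and was too low to test. Of 14 glucocorticoid-induced genes tested, 0 passed, and 1 (7.14%) was higher and 0 lower without overlap, with a median log2 fold change of 0.30.

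Ion channel and release genes are read against the background of 17.6% higher and 17.1% lower. Of 35 potassium and HCN channel genes, 0 passed, 5 (14.3%) were higher and 10 (28.6%) lower without overlap, with a median log2 fold change of -0.08 (-0.04 without non-pregnant replicate 2). Kcnip3, a subunit of A-type potassium channels, stood at 83.7 and 85.2 in pregnant mice and 124 and 101 in non-pregnant mice (log2 fold change -0.41). Of 24 sodium and calcium channel genes, 0 passed, 1 was higher and 9 (37.5%) lower without overlap, Cacng2 and Cacnb1 among the lower, with a median of -0.09. Of 26 release genes, 6 (23.1%) were higher and 9 (34.6%) lower, and the median was -0.0010; Rab3a and Vamp2, a small GTPase and the synaptic vesicle SNARE, had log2 fold changes of 0.53 and 0.54.

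Transmitter receptor genes were likewise mixed. Of 16 AMPA, NMDA and kainate receptor genes, 1 was higher and 5 (31.3%) lower without overlap, with a median of 0.01, and Grik5, a kainate receptor subunit, had a log2 fold change of -0.28. Of 14 GABA receptor genes, 4 (28.6%) were higher and 1 lower, with a median of 0.06, and of 7 metabotropic glutamate receptor genes 0 were apart in either direction. Of 17 receptors of serotonin, dopamine, noradrenaline and acetylcholine, 5 (29.4%) were higher and 4 (23.5%) lower. Adra1a, an adrenergic receptor, stood at 14.7 and 16.3 in pregnant mice and 9.47 and 4.91 in non-pregnant mice. Chrna7, the nicotinic alpha 7 subunit, had 42 and 73 UMIs in pregnant mice and 130 and 227 in non-pregnant mice, a log2 fold change of -0.61 after scaling by depth. None of these genes passed the edgeR test.

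Some genes differ between cortical areas and laminae, and the area taken was not given. Of 20 such genes tested, 0 were called, 9 (45%) were higher and 2 (10.0%) lower without overlap, against 17.6% and 17.1% of all genes. The median log2 fold change of the 20 was 0.22 (0.11 without non-pregnant replicate 2). Etv1 was among them, with Lmo3 (12.3 and 11.3 in pregnant mice, 7.10 and 6.18 in non-pregnant mice) and the homeobox factor Meis2 (292 and 224 in pregnant mice, 206 and 174 in non-pregnant mice). Without the mixed sub-clusters the log2 fold change of Lmo3 was 0.25, against 0.83 with them. Of 39 guidance genes, 5 (12.8%) were higher and 7 (17.9%) lower. Robo3, a member of the Roundabout receptor family, and Slit2, a secreted guidance ligand, had log2 fold changes of -0.69 and -0.65. Of 23 cadherin genes, 5 (21.7%) were apart in each direction, and Pcdh19 stood at 56.7 and 37.3 in pregnant mice and 26.2 and 24.1 in non-pregnant mice.

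Clock and metabolic genes were read in the same way. Of 17 circadian clock genes, 0 passed, and 0 were higher and 5 (29.4%) lower without overlap. An unadjusted edgeR p below 0.05 was found for 4, all lower, against 2.62% of all genes lower. The median log2 fold change of the 17 was -0.07 (-0.25 without non-pregnant replicate 2 and -0.025 without non-pregnant replicate 1). Nr1d1, a repressor of the clock, stood at 3.53 and 4.62 in pregnant mice and 7.73 and 8.64 in non-pregnant mice, and Dbp, a clock-driven transcription factor, at 8.81 and 12.0 in pregnant mice and 14.5 and 18.3 in non-pregnant mice. Bhlhe41, a further repressor, stood at 13.2 and 20.3 in pregnant mice and 23.4 and 30.1 in non-pregnant mice. Of 20 nuclear genes of oxidative phosphorylation, 8 (40.0%) were higher and 0 lower, with a median of 0.18 that was 0.05 without non-pregnant replicate 2, 0.11 without pregnant replicate 2 and 0.28 without non-pregnant replicate 1. Of 25 genes of cholesterol and fatty acid synthesis, 7 (28.0%) were higher and 1 lower, with a median of 0.25, and of 5 interferon-induced genes tested 2 were higher and 1 lower.

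The upper-layer markers themselves showed no common direction. Of the 14 outside the rule, 3 (21.4%) were higher and 1 (7.14%) lower without overlap, against 17.6% and 17.1% of all genes. The test called 0, and the median log2 fold change was 0.04 (-0.067 without pregnant replicate 1 and 0.021 without pregnant replicate 2). Ccbe1 stood at 117 and 109 in pregnant mice and 90.0 and 73.0 in non-pregnant mice, and Nectin3 at 341 and 358 in pregnant mice and 272 and 286 in non-pregnant mice. Cux1, the paralogue of Cux2, was the lower one, at 276 and 325 in pregnant mice and 334 and 408 in non-pregnant mice; its log2 fold change was -0.30, and -0.06 without sub-clusters 1, 4, 8 and 9.

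The pregnancy difference in members was then set against that in L4/5 IT nuclei of the same libraries, in 1 fit with the library as a block. Of 15997 genes, 1 (0.00625%) had a difference between the classes at adjusted p below 0.05. This was Zfp804b, a zinc-finger gene, with a difference of -0.61 (SE 0.0782, adjusted p = 0.0364). It stood at 298 and 296 CPM in members of pregnant mice and 373 and 243 in members of non-pregnant mice, and at 234 and 213 in L4/5 IT nuclei of pregnant mice and 189 and 116 in those of non-pregnant mice. Its groups overlapped in members and were apart in L4/5 IT nuclei. The next genes missed the threshold: Luzp2 differed by -1.35 and Grik4, a kainate receptor subunit, by -0.76, both with adjusted p = 0.108. Olfm3, at 1.05 in members and -0.0038 in L4/5 IT nuclei, differed by 1.11 (adjusted p = 0.172).

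Some genes passed in L4/5 IT nuclei and had like values in members. Norad rose in L4/5 IT nuclei (log2 fold change 1.29, adjusted p = 0.0014) and in inhibitory nuclei (1.38, adjusted p = 7.17e-05), against 1.40 in members. Its difference between members and L4/5 IT nuclei was 0.11 (SE 0.154, adjusted p = 0.983). Sdk1 fell in L4/5 IT nuclei (-0.81, adjusted p = 0.00168), Nell1 fell (-0.68, adjusted p = 0.0108) and Etv1 rose (0.99, adjusted p = 0.0464). L4/5 IT nuclei numbered 3557, and 84 genes were called in their own fit, so the lack of calls in the smaller member set does not show that members differ less.

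Against inhibitory nuclei (Gad1 and Gad2 summing to at least 3 UMIs, Slc17a7 at most 1), 13 of 15585 genes (0.0834%) differed in their pregnancy response. The difference was positive for 4 and negative for 9, and 3 of the 13 are predicted genes that are not named. Sdk1 had a log2 fold change of -0.78 in members and -0.05 in inhibitory nuclei, a difference of -0.73 (SE 0.104, adjusted p = 0.0112). Etv1 had 0.88 in members and -0.16 in inhibitory nuclei (difference 1.03, adjusted p = 0.037). Crispld1, Arhgap15 and Chrna7 were lower in pregnant mice in members and near or above 0 in inhibitory nuclei, with differences of -0.79, -1.0 and -0.89. Trpc5, a cation channel, was higher in members of pregnant mice (176 and 149 CPM) than of non-pregnant mice (123 and 94.2), and lower in inhibitory nuclei of pregnant mice (115 and 107) than of non-pregnant mice (142 and 126), a difference of 0.82 (adjusted p = 0.0112).

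For the other 4 named genes the log2 fold change lay between -0.15 and 0.06 in members and was larger in size in inhibitory nuclei. Sv2b, a synaptic vesicle protein of excitatory neurons, stood at 325 and 334 CPM in members of pregnant mice and 371 and 340 in members of non-pregnant mice. In inhibitory nuclei it stood at 17.9 and 23.9 in pregnant mice and 12.4 and 10.2 in non-pregnant mice, and the difference was -1.04 (adjusted p = 0.0112). Cracdl was at 230 and 232 in members of pregnant mice and 238 and 235 in members of non-pregnant mice, and at 22.3 and 23.8 in inhibitory nuclei of pregnant mice and 13.9 and 13.7 in those of non-pregnant mice. Both genes are thus far lower in inhibitory nuclei than in members, and the part of excitatory RNA in the inhibitory nuclei was not tested. Adgrl2, the adhesion receptor latrophilin 2, differed by -0.87 and Ntng1, netrin G1, by 0.83. Without pregnant replicate 1, 0 genes passed this comparison, and without non-pregnant replicate 1, 290 did.

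**Figure D5:**
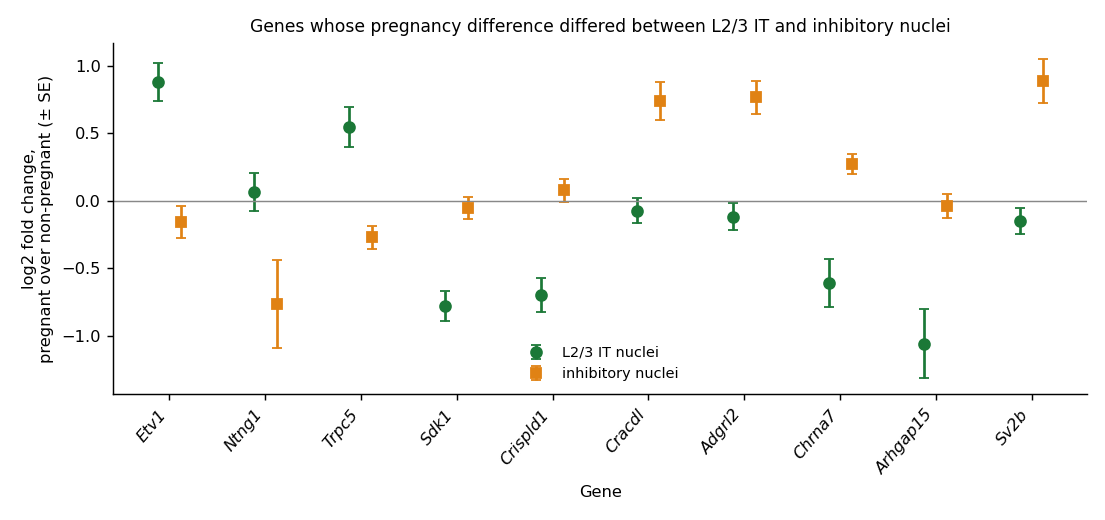
Log2 fold changes (pregnant over control) with their standard errors, in L2/3 IT nuclei (circles) and inhibitory nuclei (squares), for the 10 named genes whose pregnancy difference differed between the classes. Sdk1 is at -0.78 in L2/3 IT and -0.05 in inhibitory nuclei, and Sv2b at -0.15 and 0.89.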

How the data were processed

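The deposited matrices hold raw UMI counts for 33696 genes, and no value was normalised by the authors. Per the submitters' processing notes, Cell Ranger 10.0.0 was run on GRCm39; no source used here states how strand was handled. Coordinates are not given, since the annotation at hand is of another build. The members and the 35 gene lists were chosen with earlier results of these data known. Members' counts were summed per library and tested with edgeR 4.0.16 (quasi-likelihood, robust, TMM, filterByExpr with a minimum count of 10), with Benjamini-Hochberg adjustment over all genes tested and a threshold of 0.05; DESeq2 1.42.0 was an alternative. The test was tried on simulated data. Named genes are the 10 higher and 10 lower of smallest p with no overlap between groups, up to 4 per list, hormone receptors, and up to 5 per direction of each class comparison; predicted and mitochondrial genes are not named, and some others are not reported here. Doublets (top 5% of a neighbour score per library) were marked and kept in the main sums. Sub-clusters came from scanpy 1.11.5 (1500 variable genes, 20 components, Leiden resolution 0.6). Replicate numbers are shared by the groups but mark no stated pairing.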

Additional observations from a re-analysis of the deposited data

Results flagged for a closer look

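The following differences between classes of nuclei passed the test of the difference itself, and each is the log2 fold change (pregnant over control) in L2/3 IT nuclei minus that in the other class. Against L4/5 IT nuclei, Zfp804b differed by -0.61. Against inhibitory nuclei, positive differences were found for Etv1 (1.03), Ntng1 (0.83) and Trpc5 (0.82). Negative differences were found for Sv2b (-1.04), Arhgap15 (-1.0), Chrna7 (-0.89), Adgrl2 (-0.87), Cracdl (-0.82), Crispld1 (-0.79) and Sdk1 (-0.73). With 7 alternatives each, Zfp804b, Trpc5, Sv2b, Adgrl2, Sdk1, Cracdl, Arhgap15 and Etv1 passed in 6, Crispld1 and Ntng1 in 5 and Chrna7 in 4, and no difference changed sign. Groups of 2 libraries are too small for a test of single outlying libraries.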

How the results depend on the processing

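With 2 libraries per group, counts of genes past the threshold rest heavily on the settings, and the cause of each change was not tested. Against 0 genes, no filter on low counts gave 140, DESeq2's test 10, stricter thresholds 5, no Otof threshold 10, equal nuclei per sub-cluster 5, leaving out the mixed sub-clusters 1, leaving out sub-cluster 1 gave 3, and leaving out both kinds 3. Leaving out 1 library in turn gave 0 to 551: 551 without non-pregnant replicate 1 and 79 without non-pregnant replicate 2. The fit with the replicate block gave 59 (38 higher, 21 lower). Samples that share a number have deviations correlated at 0.229 over 5984 genes in 2 pairs, which does not establish a pairing. Against L4/5 IT nuclei, 1 gene became 96 with no filter, 12 with equal nuclei, and 5 to 177 leaving out 1 library. Against inhibitory nuclei, 13 genes became 157 with no filter, 33 with equal nuclei, and 0 to 290 leaving out 1 library. Where an arm keeps 1 library, that library is assumed to vary like the others. The difference in the share of members was -3.30 percentage points, -4.81 to -1.78 leaving out 1 library, -1.01 with stricter thresholds and -0.111 with 5000 UMIs per nucleus, negative in each alternative run. The difference in median UMIs per member ran between -3542.25 and 1631.75 leaving out 1 library, the positive value being without non-pregnant replicate 2. Of 985 fold changes of 54 genes under alternatives, 833 kept direction and call, 149 kept direction and passed, and 3 reversed. All 3 reversals came where the rule was applied to rule-gene counts thinned to 5000 UMIs per nucleus: Mkx -0.26, Calb1 -0.068 and Meis2 -0.35. That left 2 and 7 members in pregnant mice and 11 and 11 in non-pregnant mice, whose full counts were summed. The 54 genes were chosen from these same data, so the count is a description. Outside them, the log2 fold change ran between -1.58 and 0.65 for Prlr and between -0.46 and 0.14 for Pgr. The alternatives with 15000 UMIs and without sub-clusters were chosen after seeing the data. Low counts limit genes such as Prlr, Egr2 and Hbb-bs.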
